A study of Drosophila melanogaster with 4 samples.

Results

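The vacuolar ATPase (V-ATPase) genes of *Drosophila melanogaster* were examined in ovaries with germline RNAi against both *bam* and *aramis*, set against ovaries with germline RNAi against *bam* alone. The members are the protein-coding genes whose symbol starts with Vha, together with *VhaPRR*, which the annotation lists as *ATP6AP2*. The rule gave 34 genes, of which 30 had a matching identifier among the 17023 genes of the count data. The remaining 4, *Vha26*, *Vha13*, *Vha44* and *VhaAC39-1*, were not matched and were not analysed here. Libraries were made from poly(A)-selected RNA of whole ovaries, with 2 replicates of >*bam* RNAi; *aramis* RNAi, the double RNAi, and 2 replicates of >*bam* RNAi. Both genotypes carry UAS-Dicer2 and NosGAL4, a driver active in the germline, so the RNAi constructs were expressed in germ cells while all cells of the ovary were sequenced. Flies of both were fed yeast and dissected between 1 and 3 days of adult life. The labels do not say whether the replicates were separate sets of animals, so the p-values measure only the spread between these libraries, which may be technical.

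The V-ATPase is a rotary proton pump that acidifies lysosomes, endosomes and secretory vesicles. Its cytosolic V1 sector hydrolyses ATP and turns a central stalk, which drives the V0 sector in the membrane to carry protons across. Subunits A and B form the catalytic head, D and F the central stalk, and C, E, G and H the outer stalks and their attachment. In V0, subunit a holds the channels through which protons pass, c and c'' form the rotating ring, d couples the ring to the central stalk, and e is a small hydrophobic protein. Flies encode many of these subunits in several genes, of which usually one is used in most tissues while the others are restricted to particular tissues. *Vha100-1*, for example, is best known from neurons and *Vha100-4* from the midgut. The ubiquitous and restricted isoforms were named here from that background, with *Vha68-1* treated as a second widely used isoform of subunit A. Other tissues were not measured here.

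Total counts were 11882367 and 12434452 in >*bam* RNAi; *aramis* RNAi, against 12074934 and 13348602 in >*bam* RNAi. A floor of 3 counts corresponded to between 0.225 and 0.252 CPM, the count scaled to the depth of its library, and reflects counting error only, since PCR copies were not told apart. Levels of different genes were compared in TPM, which divides by exon length. The targeted gene *aramis*, listed as *ais*, had 149 and 161 counts in >*bam* RNAi; *aramis* RNAi, against 454 and 507 counts in >*bam* RNAi. It fell by 1.37 on the log2 scale (SE 0.113, adjusted p = 3.3e-04, quasi-likelihood test in edgeR, Benjamini-Hochberg adjusted). *bam*, targeted in both genotypes, had 16 and 17 counts in the double RNAi, against 35 and 25 counts in >*bam* RNAi, with a log2 fold change of -0.61 (SE 0.416) and an adjusted p of 0.262 by the same test.

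Of the 30 measured V-ATPase genes, 16 passed the filter on low counts and were tested. Of these, 14 were higher in >*bam* RNAi; *aramis* RNAi and 0 were lower at an adjusted p under 0.05 (quasi-likelihood test in edgeR, Benjamini-Hochberg adjusted over 9115 genes). This share of 87.5% compares with 25.4% of all genes tested that were higher, 25.0% that were lower and 50.4% that were called in either direction. At an unadjusted p under 0.05, 15 were higher and 0 lower by edgeR, and DESeq2 also called 0 lower. The share of all genes at that unadjusted threshold is not given here, and DESeq2 called 1698 of 13308 genes lower. The rises lay between 1.32-fold and 1.85-fold in the fit, and on the TPM scale, which has no TMM scaling, the log2 ratios of the called genes ran between 0.27 and 0.76. The median log2 fold change of the 16 tested genes was 0.54, against -0.02 over all genes tested. Called genes were found in both sectors and among the accessory proteins. Of subunits C, E and G no gene was matched, and the only measured gene of subunit d was not called. In V1 7 of 7 tested genes rose, in V0 5 of 7, and among the accessory proteins 2 of 2. In bulk RNA, fewer cells of a type cannot be told apart from less RNA per cell. In the same comparison germline markers had a median log2 fold change of -1.54, somatic ovary markers one of 0.51 and muscle sheath markers one of 1.01, and the part of such differences in cell content in the members' rises was not tested.

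Without TMM, that is, with library totals alone, the median of all genes moved to -0.21 and 8 members were higher, the 6 that lost the call being *Vha36-3* (adjusted p = 0.0800 by the edgeR test) and 5 ubiquitous isoforms given with their class. All calls then split into 1684 higher and 3346 lower genes, against 2312 and 2278 with TMM. Relative to the median of all genes, the members' median was 0.55 higher on the log2 scale with library totals and 0.56 higher with TMM. A change of scaling shifts all genes by nearly the same amount, so this gap is nearly fixed by construction and tests nothing. Leaving out replicate 1 or replicate 2 of >*bam* RNAi left 1 called member in each case (*VhaM9.7-b* and *Vha100-1*), while 8.81% and 7.29% of all genes were then higher. The direction was upward for 15 of 16 tested members in each of these fits and in both fits that left out a >*bam* RNAi; *aramis* RNAi library. These fits reuse the remaining libraries, and the 14 called members did not overlap between genotypes in TPM. Their direction was therefore nearly fixed in advance and adds no support.

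**Figure D1:**
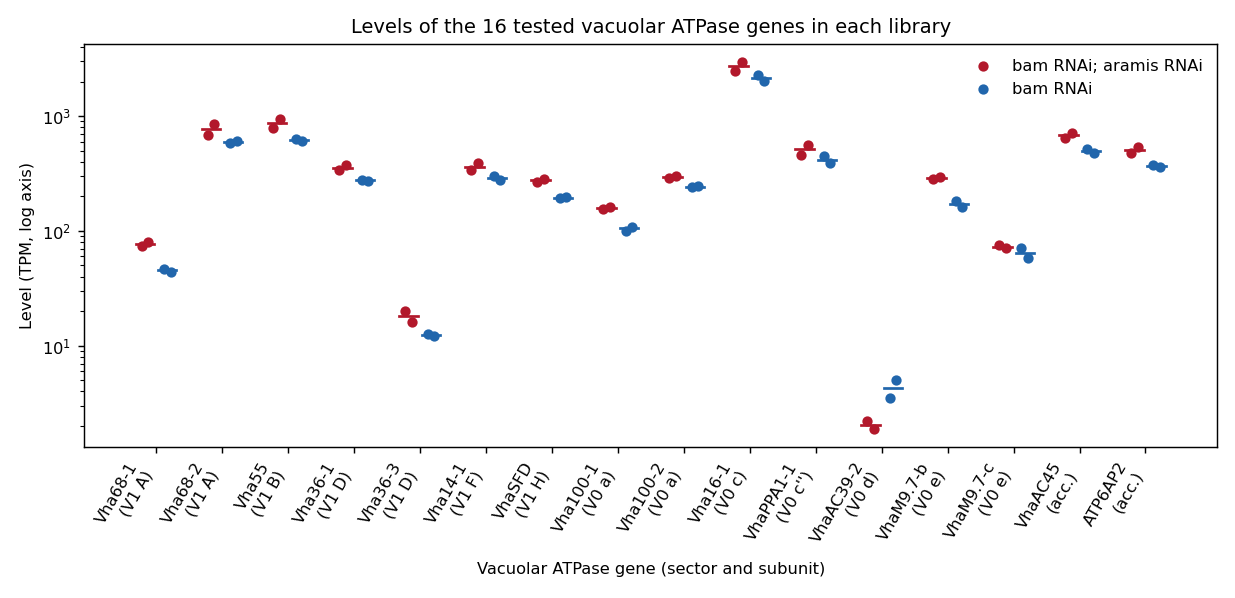
Levels of the 16 tested V-ATPase genes in TPM on a log axis, with 1 point per library, a bar at the mean of each genotype (n = 2 each) and the sector and subunit in brackets. Libraries of >*bam* RNAi; *aramis* RNAi (left of each pair) lie above those of >*bam* RNAi without overlap in the 14 called genes, while *VhaM9.7-c* overlaps and *VhaAC39-2* lies below. The calls come from the same libraries, so this separation adds no support to them. The share of all genes without overlap is not given here.

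The order of levels among the tested genes was similar in both genotypes. The proteolipid gene *Vha16-1* was highest, at 2706 ± 330.0 TPM in >*bam* RNAi; *aramis* RNAi and 2158 ± 180.1 TPM in >*bam* RNAi (SD, n = 2 each). It was followed in both genotypes by *Vha55*, *Vha68-2*, *VhaAC45*, *VhaPPA1-1*, *ATP6AP2*, *Vha14-1*, *Vha36-1* and *Vha100-2*. *Vha55* and *Vha68-2*, and likewise *Vha14-1* and *Vha36-1*, overlapped between neighbours in both genotypes, so their order is within the spread. Lower down, *VhaM9.7-b* stood above *VhaSFD* in >*bam* RNAi; *aramis* RNAi and below it in >*bam* RNAi. *Vha68-1* and *VhaM9.7-c* changed places in the same way, although their libraries overlapped in >*bam* RNAi; *aramis* RNAi. The lowest tested gene was *VhaAC39-2*, at 2.05 ± 0.231 TPM in >*bam* RNAi; *aramis* RNAi and 4.27 ± 1.03 TPM in >*bam* RNAi.

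In the catalytic head, the 3 tested genes rose. *Vha55*, the only gene of the nucleotide-binding subunit B, had 788 and 942 TPM in >*bam* RNAi; *aramis* RNAi, against 638 and 609 TPM in >*bam* RNAi. The genotypes did not overlap, and the fitted log2 fold change was 0.60 (SE 0.138, adjusted p = 0.0111, quasi-likelihood test in edgeR with Benjamini-Hochberg adjustment, as for all fitted changes that follow). *Vha68-2*, the main gene of the ATP-hydrolysing subunit A, had 686 and 856 TPM in the double RNAi against 588 and 612 TPM in >*bam* RNAi. Both double RNAi libraries were again the higher ones, with replicate 2 well above replicate 1, and the log2 fold change was 0.49 (SE 0.154, adjusted p = 0.0356). *Vha68-1*, its second isoform, had 73.2 and 79.6 TPM in >*bam* RNAi; *aramis* RNAi, against 46.7 and 44.1 TPM in >*bam* RNAi. Its replicates lay close together and its log2 fold change of 0.88 (SE 0.105, adjusted p = 9.2e-04) was among the largest of the members.

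The 3 *Vha68* genes lie on chromosome arm 2L (build BDGP6, the same coordinates as dm6). *Vha68-2* spans 12974322 to 12978607 on the plus strand, *Vha68-3* starts 178 bases beyond it on the same strand, and *Vha68-1* lies at 13000770 to 13004107 on the minus strand. *Vha68-3* had 2 and 4 counts in >*bam* RNAi; *aramis* RNAi, against 11 and 5 counts in >*bam* RNAi, and did not pass the filter. Such neighbouring copies occur in other subunits as well. The low genes *Vha100-4* and *VhaPPA1-2* lie 517 bases from *Vha100-2* and 2052 bases from *VhaPPA1-1*, while *Vha16-2* and *Vha16-3*, 985 bases apart, were both near the floor. How reads that match several members were counted is not given in the sources used here, so the split of reads between similar isoforms is uncertain.

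The main genes of the stalk subunits that were measured rose. *Vha36-1*, the main gene of the central stalk subunit D, had 338 and 374 TPM in >*bam* RNAi; *aramis* RNAi, against 279 and 274 TPM in >*bam* RNAi. Its genotypes were separate, with a log2 fold change of 0.49 (SE 0.0991, adjusted p = 0.0069). *Vha14-1*, the main gene of the other central stalk subunit, F, had 339 and 388 TPM in the double RNAi against 301 and 278 TPM in >*bam* RNAi. Here too both double RNAi libraries were higher, with a log2 fold change of 0.46 (SE 0.113, adjusted p = 0.0148). *VhaSFD*, the single gene of subunit H, which keeps free V1 inactive, had 269 and 283 TPM in >*bam* RNAi; *aramis* RNAi, against 193 and 197 TPM in >*bam* RNAi. The replicates of each genotype differed little, and the log2 fold change was 0.63 (SE 0.0922, adjusted p = 0.0019).

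*Vha36-3*, a restricted isoform of subunit D on the X chromosome, was much lower, at 20.2 and 16.2 TPM in >*bam* RNAi; *aramis* RNAi and 12.7 and 12.2 TPM in >*bam* RNAi. It rose by 0.67 on the log2 scale (SE 0.187, adjusted p = 0.0241). The call did not hold with DESeq2 (adjusted p = 0.0966), nor without replicate 1 of >*bam* RNAi; *aramis* RNAi (log2 fold change 0.57, adjusted p = 0.106).

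Among the membrane subunits, the isoform pair of subunit a rose in both members. *Vha100-2*, the ubiquitous isoform, had 288 and 300.4 TPM in >*bam* RNAi; *aramis* RNAi, against 242 and 245 TPM in >*bam* RNAi. Although this was the smallest rise among the called members, at 0.40 on the log2 scale (SE 0.0906, adjusted p = 0.0109), the genotypes were clearly separate. *Vha100-1*, the isoform known from neurons, had 156 and 162 TPM in >*bam* RNAi; *aramis* RNAi, against 101 and 109 TPM in >*bam* RNAi. The genotypes did not overlap, and by TPM it ranked above 89.8% of genes with an exon length in >*bam* RNAi. Its log2 fold change was 0.72 (SE 0.0979, adjusted p = 0.0014). It lies on chromosome arm 3R at 29131193 to 29137980, and 11 bases of its exons overlap *Alg13* on the opposite strand.

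*Vha16-1*, the ubiquitous gene of the ring subunit c, had 2473 and 2939 TPM in >*bam* RNAi; *aramis* RNAi, against 2285 and 2031 TPM in >*bam* RNAi. *VhaPPA1-1*, the gene of the related ring subunit c'', had 460.1 and 564 TPM in the double RNAi against 445 and 390.3 TPM in >*bam* RNAi. In both genes replicate 2 of the double RNAi stood apart upward, whereas replicate 1 exceeded the nearest >*bam* RNAi library only slightly. *Vha16-1* rose by 0.46 (SE 0.151, adjusted p = 0.0420) and *VhaPPA1-1* by 0.43 (SE 0.136, adjusted p = 0.0378) on the log2 scale. Without that replicate the log2 fold changes were 0.27 for *Vha16-1* (adjusted p = 0.0785), 0.22 for *VhaPPA1-1* (adjusted p = 0.102) and 0.27 for *Vha68-2* (adjusted p = 0.0966). *Vha16-1* also missed the threshold without the low-count filter (adjusted p = 0.0542).

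Subunit e had the highest rise among the members. *VhaM9.7-b*, its ubiquitous gene, had 283 and 298 TPM in >*bam* RNAi; *aramis* RNAi, against 181 and 162 TPM in >*bam* RNAi. Its log2 fold change was 0.89 (SE 0.0904, adjusted p = 5.6e-04), a value exceeded by 13.2% of all genes tested. *VhaM9.7-c*, a restricted isoform, had 75.9 and 70.3 TPM in the double RNAi against 70.6 and 58.1 TPM in >*bam* RNAi. Its libraries overlapped between genotypes and it did not pass the test, with a log2 fold change of 0.31 (SE 0.121, adjusted p = 0.0705).

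The other tested gene that did not pass was *VhaAC39-2*, a restricted isoform of the coupling subunit d. It had 13 and 12 counts in >*bam* RNAi; *aramis* RNAi, against 22 and 36 counts in >*bam* RNAi. It was the only tested member with lower values in the double RNAi, and with so few counts its log2 fold change of -0.94 had an SE of 0.431 (adjusted p = 0.112). With scaling on germline markers the value was 0.50 (adjusted p = 0.318), while the median of all genes was then 1.42, so it stayed below that median. Its ubiquitous partner *VhaAC39-1* was among the genes not analysed here.

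Both tested genes of accessory proteins rose. *VhaAC45*, whose relatives in yeast and mammals help to assemble V0, had 639 and 717 TPM in >*bam* RNAi; *aramis* RNAi, against 516 and 475 TPM in >*bam* RNAi. *ATP6AP2*, which encodes the V-ATPase-associated (pro)renin receptor, had 479 and 535 TPM in the double RNAi against 376 and 361 TPM in >*bam* RNAi. Both were separate between genotypes, with log2 fold changes of 0.58 for *VhaAC45* (SE 0.112, adjusted p = 0.0057) and 0.59 for *ATP6AP2* (SE 0.103, adjusted p = 0.0039). *VhaAC45RP*, a relative of *VhaAC45*, had 2 and 8 counts in the double RNAi against 1 and 5 counts in >*bam* RNAi and was not tested.

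**Figure D2:**
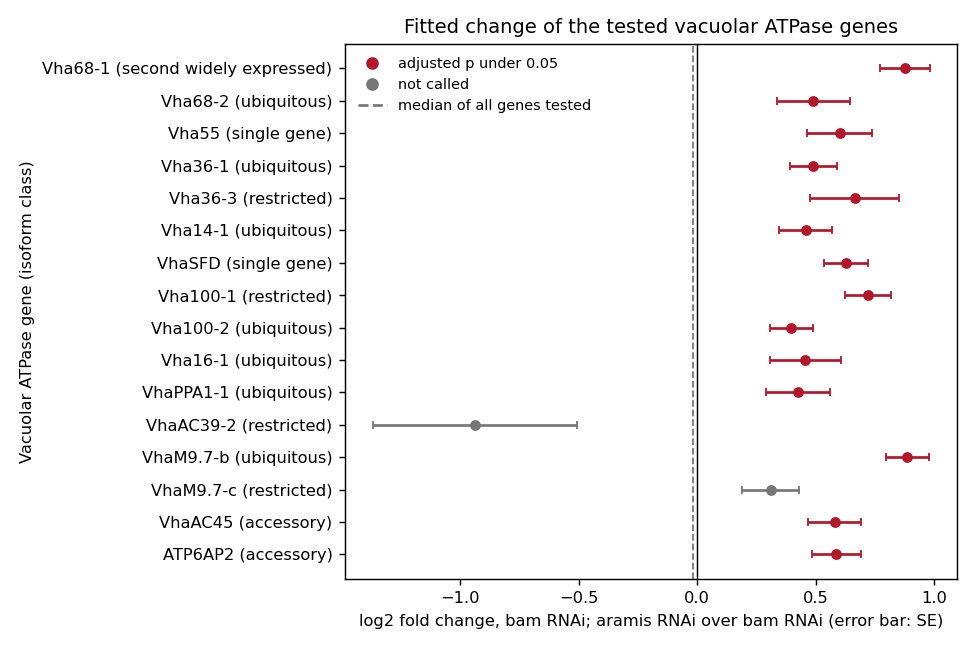
Fitted log2 fold changes (>*bam* RNAi; *aramis* RNAi over >*bam* RNAi) of the 16 tested V-ATPase genes with their standard errors. The 14 genes in red have an adjusted p under 0.05 and lie between 0.40 and 0.89, the 2 in grey were not called, and the dashed line marks the median of all genes tested at -0.02.

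The other 14 measured members were at or close to the floor, with at most 11 counts in a library and a mean of at most 1.10 TPM in a genotype. *Vha100-3*, *Vha100-5*, *Vha16-3*, *Vha16-4* and *VhaM9.7-d* had 0 counts in every library, which at this depth allows up to 0.252 CPM in a library. The remaining 9 had at least 1 count. *Vha100-4* had 3 and 1 counts in >*bam* RNAi; *aramis* RNAi, against 9 and 4 counts in >*bam* RNAi, and 47 bases of its exons overlap *cona* on the opposite strand. *VhaPPA1-2* had 2 and 1 counts in the double RNAi against 4 and 4 counts in >*bam* RNAi, and *Vha16-5* had 1 and 1 counts in the double RNAi against 5 and 2 counts in >*bam* RNAi. The lowest of the group were *Vha16-2*, *Vha14-2*, *Vha36-2* and *VhaM9.7-a*, with between 0 and 4 counts per library. No change can be given for these genes at this depth.

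Summed over sectors, V1 transcripts came to 2514 and 2939 TPM in >*bam* RNAi; *aramis* RNAi, against 2059.7 and 2028 TPM in >*bam* RNAi. V0 transcripts came to 3739.8 and 4337 TPM in the double RNAi against 3332 and 3002 TPM in >*bam* RNAi. The ratio of the means was 1.33 for V1 and 1.28 for V0. In each sector both double RNAi libraries were above both >*bam* RNAi libraries, and the exact two-sided permutation test gave p = 0.333, the smallest that 2 against 2 libraries allow. Without replicate 2 of >*bam* RNAi; *aramis* RNAi the log2 ratios were 0.30 for V1 and 0.24 for V0, against 0.42 and 0.35 with all libraries. The c subunit alone made up most of the V0 sum, and V0 without it had a ratio of 1.32. By subunit the ratio ran between 1.22 for c'' and 1.54 for e, leaving aside subunit d, of which only the low *VhaAC39-2* was measured. All 30 measured genes together made up 0.795% of all TPM in >*bam* RNAi; *aramis* RNAi and 0.608% in >*bam* RNAi. The sums leave out the 4 genes that were not matched.

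The ubiquitous and the restricted isoforms were then compared. All 7 tested ubiquitous isoforms rose, with a median log2 fold change of 0.46, beside 25.4% of all genes tested that were higher. With library totals without TMM, 5 of the 7 lost the call, namely *Vha68-2* (adjusted p = 0.100), *Vha14-1* (0.0662), *Vha100-2* (0.0758), *Vha16-1* (0.116) and *VhaPPA1-1* (0.142), by the edgeR test, while *Vha36-1* and *VhaM9.7-b* were still called. Of the 17 restricted isoforms measured, 4 were tested and 2 of them, *Vha100-1* (log2 fold change 0.72) and *Vha36-3* (0.67), rose. *VhaM9.7-c* (0.31) and *VhaAC39-2* (-0.94) were not called. The median of the 4 was 0.49, over values of opposite sign, while the ubiquitous isoforms ran between 0.40 and 0.89. The other 13 were too low to be tested. The isoforms were also compared within each subunit as a share of its summed TPM.

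*Vha100-1* made up 35.0% and 35.0% of subunit a transcripts in >*bam* RNAi; *aramis* RNAi, against 29.3% and 30.8% in >*bam* RNAi. The mean difference was 4.97 percentage points, with no overlap between the genotypes. *Vha68-1* made up 9.64% and 8.51% of subunit A transcripts in the double RNAi, against 7.35% and 6.72% in >*bam* RNAi, a mean difference of 2.04 points and also without overlap. In the opposite direction, *VhaM9.7-c* made up 21.1% and 19.1% of subunit e transcripts in >*bam* RNAi; *aramis* RNAi, against 28.0% and 26.3% in >*bam* RNAi, a mean difference of -7.06 points. For these 3 shares the exact two-sided permutation test gave p = 0.333, the smallest possible with 2 libraries per genotype, so none can pass a threshold of 0.05. The share of *Vha36-3* in subunit D was 5.62% and 4.16% in the double RNAi, against 4.36% and 4.24% in >*bam* RNAi, which overlapped (exact permutation p = 1). The low isoforms *Vha68-3*, *Vha100-4* and *VhaPPA1-2* stayed at or under 0.265% of their subunits in every library. Over the 7 shares compared, the Benjamini-Hochberg adjusted values of these exact tests were 0.389, and 1 for *Vha36-3*.

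**Figure D3:**
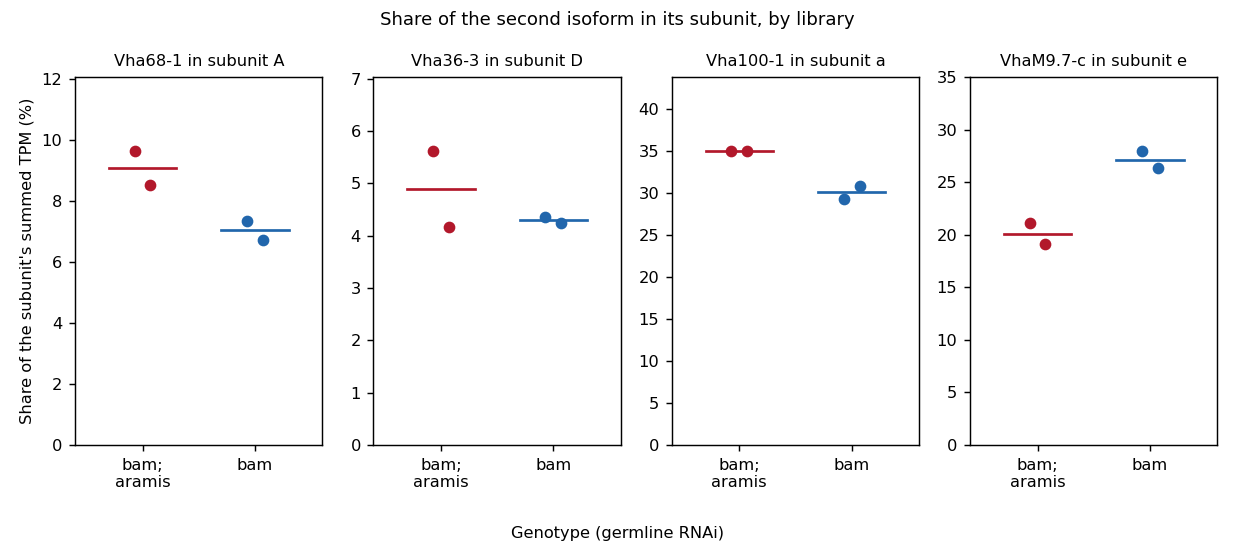
Share of *Vha68-1*, *Vha36-3*, *Vha100-1* and *VhaM9.7-c* in the summed TPM of their subunit, in percent, with 1 point per library, a bar at the mean, and >*bam* RNAi; *aramis* RNAi left of >*bam* RNAi. The shares of *Vha68-1* and *Vha100-1* are higher in both >*bam* RNAi; *aramis* RNAi libraries, that of *VhaM9.7-c* is lower in both, and that of *Vha36-3* overlaps.

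The libraries of the double RNAi differed between themselves in most members. In >*bam* RNAi; *aramis* RNAi 13 of 16 tested members had a higher CPM in replicate 2 than in replicate 1, with a median ratio of 1.13 and a range of 0.832 to 1.29. In >*bam* RNAi 9 of 16 were higher in replicate 2, with a median ratio of 1.00. The share of all genes higher in replicate 2 is not given here for either genotype, and CPM has no TMM scaling. Whether this difference is particular to the members was not tested. The genes with the largest gap, *Vha68-2* at 1.29, *VhaPPA1-1* at 1.27, *Vha55* at 1.24 and *Vha16-1* at 1.23, are all among the 5 genes with the highest TPM. The muscle sheath list moved in the same direction in these 2 libraries, with a median ratio of 1.24 and 5 of 7 genes higher in replicate 2. The hemocyte list had a median ratio of 0.978 there, the lysosome list one of 0.863 and the germline list one of 0.927. In >*bam* RNAi the muscle sheath list had a median ratio of 0.920, with 0 of 7 genes higher in replicate 2. The members' median in that genotype was 1.00, so the members did not follow the muscle sheath list there. The >*bam* RNAi medians were 0.802 for the hemocyte list, 1.01 for the lysosome list and 1.04 for the germline list. What part the muscle content has in the members' values was not tested.

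Genes that assemble or regulate the pump were taken from a list of 7, of which 6 were tested, 2 rose and 0 fell, with a median log2 fold change of 0.24. With 25.4% of all genes tested higher, 2 of 6 is near the background. At an unadjusted p under 0.05, 3 were higher and 0 lower by edgeR, a threshold for which the share of all genes is not given here. DESeq2 called 2 higher and 0 lower, with 15.8% of 13308 genes higher. Those genes include low ones that the edgeR filter removes, so this share is not on the same base as 25.4%. *mtd*, whose mammalian relatives of the TLDc family bind the V-ATPase, had 132 and 142 TPM in >*bam* RNAi; *aramis* RNAi, against 107 and 93.1 TPM in >*bam* RNAi. It rose by 0.58 on the log2 scale (SE 0.111, adjusted p = 0.0054). *Rbcn-3B*, which works with Rabconnectin-3A in activating the pump, had 51.0 and 49.6 TPM in the double RNAi against 48.5 and 40.0 TPM in >*bam* RNAi and rose by 0.31 (SE 0.0904, adjusted p = 0.0274). The genotypes of both genes were separate, though that of *Rbcn-3B* only narrowly. *Rbcn-3A* (log2 fold change 0.21), *rogdi* (-0.09), *Mitf* (0.27) and *CG5969* (-0.27) did not pass the test, and *CG7071* had 0 counts in every library. *Mitf* encodes the fly transcription factor of the MITF and TFEB family, known to act on V-ATPase and lysosome genes.

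A list of lysosomal genes, whose products work in the compartment that the pump acidifies, was examined as well. Of 23 listed, 21 were matched and 18 tested, of which 13 rose and 0 fell, with a median log2 fold change of 0.61, against -0.02 over all genes, of which 25.4% were higher. At an unadjusted p under 0.05, 13 were higher and 0 lower by edgeR, again without the share of all genes at that threshold. DESeq2 called 14 of 19 tested genes higher and 0 lower. Beside this, 15.8% of 13308 genes were higher by DESeq2, a set that includes low genes removed by the edgeR filter. *Lamp1*, a protein of the lysosomal membrane, had 1558 and 1396 TPM in >*bam* RNAi; *aramis* RNAi, against 928 and 893 TPM in >*bam* RNAi, with a log2 fold change of 0.82 (SE 0.0916, adjusted p = 7.3e-04). The genotypes were far apart relative to their replicates. The 4 cathepsin proteases *CtsL1* (0.63), *cathD* (0.68), *CtsB* (0.59) and *CtsF* (0.44) rose, as did the sterol transport genes *Npc1a* (0.69) and *Npc2a* (0.91) and the chloride transporter gene *ClC-b* (0.78), all on the log2 scale. The glycosidase genes *Gal* (1.55), *Hexo2* (1.28), *LManI* (1.23), *Hexo1* (0.58) and *LManII* (0.34) also rose on that scale. The 5 that did not pass were *Sap-r* (log2 fold change 0.29), *spin* (0.16), *Ppt1* (0.06), *Lip4* (-0.48) and *Cln3* (-1.83), of which the last had between 0 and 119 counts in a library. Leaving out replicate 1 or replicate 2 of >*bam* RNAi left 4 called lysosomal genes and 0 called genes of the assembly and regulator list. Leaving out replicate 2 of >*bam* RNAi; *aramis* RNAi left 1 called gene of the assembly and regulator list.

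**Figure D4:**
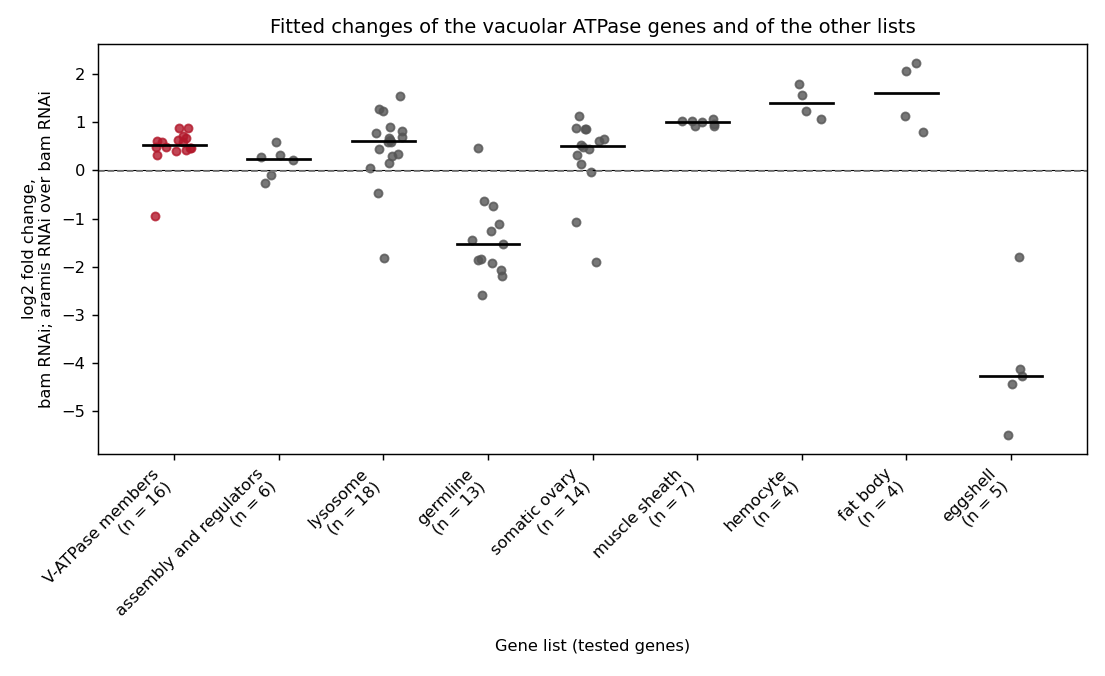
Fitted log2 fold changes (>*bam* RNAi; *aramis* RNAi over >*bam* RNAi) of the 16 tested V-ATPase genes (red) and of the tested genes of 8 other lists (grey), with a bar at each median and a dashed line at the median of all genes tested. The medians are 0.54 for the V-ATPase genes, 0.61 for the lysosome list, 1.01 for muscle sheath markers and -1.54 for germline markers.

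The cell type marker lists were followed in each library. Beside the counts that follow, 25.4% of all genes tested were higher and 25.0% lower. Germline markers summed to 1502 and 1243 CPM in >*bam* RNAi; *aramis* RNAi, against 2356 and 2434 CPM in >*bam* RNAi, with 12 of 13 lower, 1 higher and a median log2 fold change of -1.54. The 1 higher gene, *tud*, made up a large part of these sums. It had 824 and 652 CPM in the double RNAi, against 602 and 613 CPM in >*bam* RNAi. Markers of the somatic cells of the ovary summed to 2950.0 and 2660.0 CPM in the double RNAi against 2180.1 and 2024 CPM in >*bam* RNAi. *Fas3* alone had 1442 and 1321 CPM in the double RNAi, against 880 and 857 CPM in >*bam* RNAi. Of these markers 7 of 14 were higher and 2 lower, *tj* (log2 fold change -1.08) and *upd1* (-1.90). The median was 0.51, with a range of -1.90 to 1.14. All 7 tested muscle sheath genes were higher (sum 23031 and 27176 CPM in the double RNAi against 15459 and 13913 CPM in >*bam* RNAi, median 1.01). All 4 hemocyte genes were higher (6467 and 6753 CPM in the double RNAi against 3405 and 2712 CPM in >*bam* RNAi, median 1.40), and 2 of 4 fat body genes were higher. Eggshell genes were lower in 5 of 5 and uneven between replicates, at 815 and 181 CPM in the double RNAi, against 4753 and 19866 CPM in >*bam* RNAi. Gut and tubule markers had at most 54 counts and testis markers at most 3 counts in a library, and none of them passed the filter. When the libraries were instead scaled so that the germline markers were equal, the median of all genes was 1.42 and that of the V-ATPase members 1.98. The gap of 0.56 between these medians is nearly fixed by construction, since scaling shifts all genes by nearly the same amount.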

How the data were processed

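Per gene and library, the authors deposited raw counts of reads as whole numbers. The submitters' processing notes name HISAT2 2.1.0, featureCounts 1.4.6, DESeq2 1.24.0 and build dm6, with no role given. The kit is strand-specific. The annotation release, the strand setting and the treatment of multiply mapped reads are not given in the sources used here.

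Symbols, positions and exon lengths came from Ensembl release 115 on BDGP6, which matched 16647 of 17023 identifiers. The other 376, with 6.14% to 6.32% of the counts, stayed in the tests and out of TPM. TPM was computed here with the union of exons. The members, isoform classes, lists and tests were chosen with earlier results of these data known. Every member is accounted for, tested members with their values per library, and called genes of the assembly, regulator and lysosome lists are named.

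Counts were tested with edgeR 4.0.16 in R 4.3.3 (default low-count filter with a minimum count of 10, TMM, quasi-likelihood test, no replicate block, Benjamini-Hochberg adjustment over 9115 genes, threshold 0.05). Standard errors are those implied by the F statistic. The functions were tested on simulated data. Counts of replicates differed beyond sampling noise, with a chi-square over its degrees of freedom of 16.4 in >*bam* RNAi; *aramis* RNAi and 29.3 in >*bam* RNAi, and were kept as separate samples. Sector sums and isoform shares were compared with exact two-sided permutation tests. Alternatives were DESeq2 1.42.0, RLE normalization, scaling on germline markers, no filter on low counts, a replicate block, the longest transcript, CPM, and leaving out each library. Library totals without TMM were added after seeing the data. Tables and plots were made with Python 3.11.15, pandas 2.3.3, numpy 2.4.6 and matplotlib 3.10.9.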

Additional observations from a re-analysis of the deposited data

How the results depend on the processing

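The count of 14 called members became 8 with library totals without TMM, a setting chosen after seeing the data, and between 1 and 13 when each library was left out. It was 13 of 16 tested with DESeq2 and with a replicate block, 13 of 25 tested without the low-count filter, and 14 of 16 with RLE normalization. Of 9115 genes, 18.5% were higher with library totals. Of 13308 genes, which include low ones that the filter removes, 15.8% were higher with DESeq2 and 16.5% without the low-count filter. The share was 24.8% with the replicate block and 26.3% with RLE normalization. Same-numbered libraries did not deviate together over all genes (correlation 0.05), which cannot exclude that they were handled together. Under the replicate block 4430 genes were called in all and only *Vha16-1* lost its call among the members (adjusted p = 0.0579 by the edgeR test). Scaling on germline markers, under which 8064 genes were higher and 141 lower, gave 15 called members, a value of 0.50 for *VhaAC39-2*, a restricted isoform median of 1.93, a ubiquitous isoform median of 1.90 and 6 called genes of the assembly and regulator list. With library totals those medians were 0.29 and 0.26. Leaving out each library gave ranges of 0.44 to 0.52 for the restricted median, 0.31 to 0.63 for the ubiquitous median, 0 to 2 called assembly and regulator genes, 4 to 13 called lysosomal genes and a V1 log2 ratio of 0.30 to 0.52. The share difference of *Vha36-3* ran between -0.14 and 1.33 points, and was negative without replicate 1 of >*bam* RNAi; *aramis* RNAi. With CPM in place of TPM the share difference was -5.73 points for *VhaM9.7-c* and -0.084 points for *VhaPPA1-2*. The cause of these differences was not tested, and the fits that leave one out also have fewer libraries. RLE normalization changed no member's call. A promoter motif search that had been planned was not run.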
